A study of Mus musculus with 4 samples.

Results

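The clustered protocadherin genes are 57 protein-coding genes in 3 tandem arrays on mouse chromosome 18, and they were taken from the GENCODE vM21 annotation by symbol, 57 of 21938 coding genes. The alpha array held 14 of them, the beta array 22 and the gamma array 21, over 911.69 kb between 36930184 and 37841873 of chromosome 18 (mm10), all on the plus strand. The measurements were ATAC-seq peak lists, in which a peak is a stretch of the genome where the Tn5 transposase inserted adapters more often than around it, a sign of accessible chromatin. The 4 libraries came from E14 mouse embryonic stem cells (ESCs) grown in serum with LIF, transduced with a pLKO lentiviral short hairpin, selected with puromycin at 2 µg/ml for 2 days and harvested 2 days later. The hairpin was against GFP in 1 library (shGFP) and against luciferase in 3 (shLuc replicates 1 to 3), so both groups were non-targeting controls and no gene of the cells was knocked down in either.

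Clustered protocadherins are cell adhesion proteins of the cadherin superfamily that give single neurons a surface identity, because each neuron transcribes its own small set of them. In the alpha and gamma arrays each gene has its own promoter and its own large first exon, which codes for the extracellular, transmembrane and proximal cytoplasmic parts and is spliced to constant exons shared by the whole array, while the beta genes consist of a single coding exon. Promoter choice is known to involve the architectural protein CTCF, cohesin, DNA methylation and distant enhancers, and the C-type genes at the ends of the alpha and gamma arrays are used more uniformly between cells than the others. They are known chiefly from the nervous system.

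The lists held 41943 peaks for shGFP and 17860, 41401 and 31585 for shLuc replicates 1 to 3, with a median width between 603 and 663 bp. They give positions without a score or a read count, so the depth behind a peak is unknown and a missing peak says only that none was called. The list of shLuc replicate 1 was the shortest, and the main shLuc values are given with and without it. A cell population was sampled, so a peak present in all cells cannot be told apart from one present in some of them. Stem cell markers had a peak within 1 kb of a transcript start at 2, 1, 2 and 3 of 8 genes in shGFP and shLuc replicates 1 to 3. Zfp42 had one in all 4 libraries. Klf4 and Esrrb, named after their values were seen, had one in shGFP and shLuc replicate 3 and in shLuc replicates 2 and 3. The defining markers Pou5f1, Nanog and Sox2 had none in any library, nor had Dppa5a and Tdgf1. Neuron markers had such a peak at 5, 2, 6 and 4 of 8 genes in shGFP and shLuc replicates 1 to 3, with Map2 in all 4 and Neurod1 and Dcx in none, and fibroblast markers at 3, 2, 3 and 2 of 4, with Col1a1 and Thy1 in all 4 and Pdgfra in none. Among 83 ribosomal protein genes, which most cells transcribe and which were looked at after the values of the markers were seen, 66, 47, 65 and 53 had one and 9 had none in any library. Of 10 commonly used reference genes, also looked at afterwards, 8, 4, 8 and 5 had one, and Gapdh and Hprt had none in any library.

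A start peak, meaning a peak with any base within 1 kb of any annotated transcript start, was found at 25 of the 57 protocadherin genes in shGFP, and at 8, 24 and 17 in shLuc replicates 1, 2 and 3. The share was 43.9% for shGFP, and for shLuc the mean was 28.7% ± 14.1 (SD, n = 3), or 36.0% without shLuc replicate 1. Of all coding genes 60.7% had a start peak in shGFP, and 46.8%, 60.3% and 55.1% had one in shLuc replicates 1, 2 and 3. A start peak in all 4 libraries was found at 5 of the 57, where 42.5% of all coding genes had it, and 26 had none in any library, against 35.3% of all coding genes. By array the counts were as follows. Start peaks were found at 12 of 14 alpha genes in shGFP and at 2, 9 and 9 in shLuc, at 1 of 22 beta genes in shGFP and at 1, 2 and 0 in shLuc, and at 12 of 21 gamma genes in shGFP and at 5, 13 and 8 in shLuc.

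As shares these were 85.7% of the alpha genes in shGFP and 47.6% ± 28.9 (SD, n = 3) in shLuc, 4.55% of the beta genes in shGFP and 4.55% ± 4.55 in shLuc, and 57.1% of the gamma genes in shGFP and 41.3% ± 19.2 in shLuc. In shGFP the 95% Wilson interval ran from 60.1% to 96.0% for alpha, from 0.807% to 21.8% for beta and from 36.5% to 75.5% for gamma. These intervals cover only the counting of genes, and genes of an array share sequence. The order alpha, then gamma, then beta was found in shGFP and in shLuc replicates 2 and 3, while in shLuc replicate 1 gamma, at 23.8%, lay above alpha, at 14.3%. In shLuc replicate 2 alpha, at 64.3%, and gamma, at 61.9%, were nearly equal. Without shLuc replicate 1 the shLuc means were 64.3% for alpha, 4.55% for beta and 50.0% for gamma. With each list cut to its 17860 widest peaks, the length of the shortest list, alpha was at 42.9% in shGFP and 23.8% as the shLuc mean, and gamma at 19.0% and 15.9%. The beta mean rested on very few genes and was 2.27% without shLuc replicate 2 and 6.82% without shLuc replicate 3. No test of shGFP against shLuc was made, because permuting 1 library against 3 cannot give an exact p below 0.25. In each array the shGFP share lay within the range of the shLuc libraries or, for alpha, above all 3 of them.

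**Figure D1:**
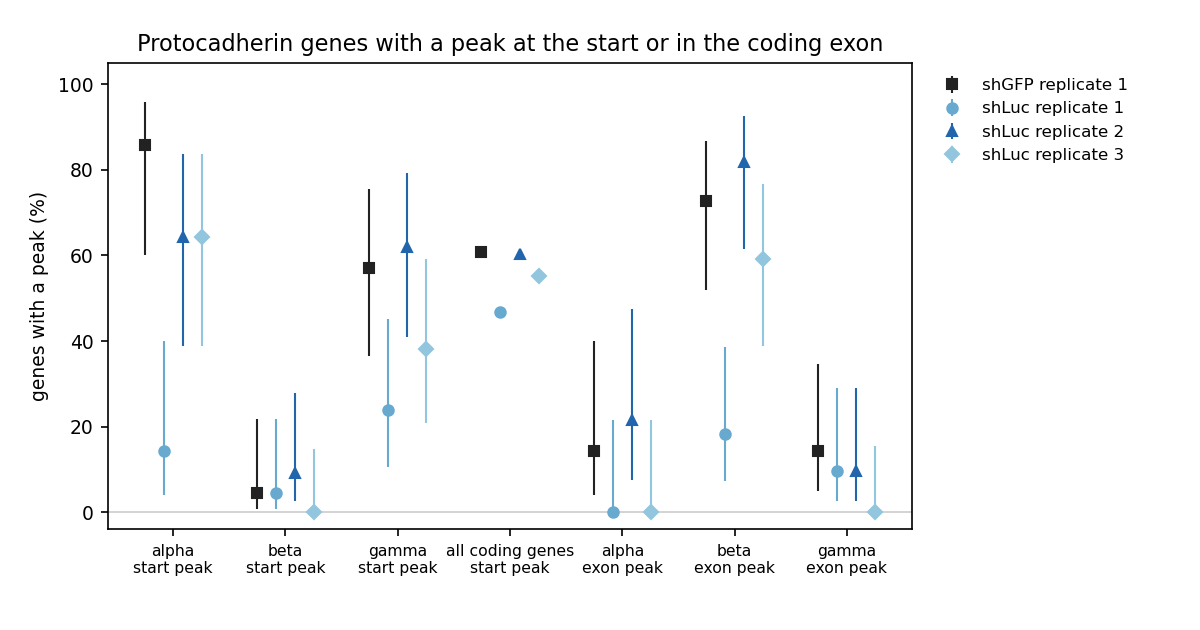
Share of genes (%) with a start peak or a coding-exon peak, by array and library, with 95% Wilson intervals as vertical lines; the points for all coding genes carry no interval. Beta genes lie at 9.09% or below for start peaks in every library and between 18.2% and 81.8% for exon peaks.

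In the alpha array all 14 genes had a start peak in at least 1 library, and 2 had one in all 4. Pcdha7 was 1 of them, with peaks of 676 bp in shGFP and 438, 622 and 933 bp in shLuc replicates 1 to 3, whose centres lay between 336 and 574 bp downstream of the annotated 5′ end. The other was Pcdhac1, the first of the C-type genes, which are kept apart from the other alpha genes by their sequence and their more uniform use. Its peaks measured 860, 327, 903 and 656 bp and were centred within 88 bp of the 5′ end. These were also the only alpha genes with a peak in shLuc replicate 1.

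Pcdhac2, the other C-type gene of the array and its last, had the widest start peaks of the 57 genes in shGFP and shLuc replicates 2 and 3, at 1260, 1195 and 1066 bp. No peak was listed there in shLuc replicate 1. Pcdha6 had peaks of 632, 570 and 502 bp in the same 3 libraries, and Pcdha12 had 513, 688 and 574 bp. Pcdha1, the first gene of the array, had 741 bp in shGFP and 640 bp in shLuc replicate 2, and was without a peak in the other 2.

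The 2 genes that the annotation both calls Pcdha11 (ENSMUSG00000007440, which starts at 37005203, and ENSMUSG00000102206, which starts at 37010712) had peaks in the same 2 libraries, of 728 and 690 bp and of 731 and 725 bp. Pcdha2, Pcdha3 and Pcdha9 had theirs in shGFP and shLuc replicate 3, with widths from 290 to 692 bp. Pcdha4 had one in shGFP alone (740 bp) and Pcdha5 in shLuc replicate 3 alone (629 bp). Pcdha8, named here after its values were seen, had one in shLuc replicate 2 alone (478 bp). The alpha genes with a peak therefore changed from library to library: shGFP shared 8 alpha genes with shLuc replicate 2 and 8 with shLuc replicate 3, which is 66.7% of its own 12 and 88.9% of the 9 in each of those, while shLuc replicates 2 and 3 shared 5, or 55.6% of each. Over all coding genes shLuc replicates 2 and 3 shared 88.6% and 96.8% of their genes with a start peak.

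The C-type gene Pcdhgc3 had a start peak in all 4 libraries, of 886 bp in shGFP and 601, 1144 and 839 bp in shLuc replicates 1 to 3. The other gamma genes found in all 4 were Pcdhga1 and Pcdhga2, the first 2 of the array. Pcdhga1 had peaks of 851, 612, 804 and 589 bp and Pcdhga2 peaks of 569, 327, 567 and 538 bp. Pcdhga3, which follows them, had peaks of 618, 548 and 578 bp in shGFP and shLuc replicates 1 and 2 and none in shLuc replicate 3. The 5′ end of the gamma array and Pcdhgc3 thus kept their peaks in shLuc replicate 1, where 1 further gamma gene, Pcdhga8, also had one.

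Pcdhga8 measured 485, 397 and 719 bp in shGFP and shLuc replicates 1 and 2. Pcdhga6, Pcdhgb4 and Pcdhgb6 had start peaks in shGFP and also shLuc replicates 2 and 3, with widths from 289 to 760 bp. Pcdhga7 and Pcdhga9 were found in shGFP and shLuc replicate 2, and Pcdhgb1 and Pcdhgb5 in shLuc replicates 2 and 3. Found in 1 library only were 3 of the 21, Pcdhga5 (660 bp) and the C-type gene Pcdhgc4 (627 bp) in shGFP, and Pcdhga4 (480 bp) in shLuc replicate 2. The last gene of the array, the C-type gene Pcdhgc5, had no start peak in any library, nor had 5 other gamma genes. Of the 5 C-type genes of both arrays, 2 were therefore found in all 4 libraries, 1 in 3, 1 in 1 and 1 in none.

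Start peaks of the alpha genes were centred a median of 256 bp downstream of the 5′ end (32 gene and library pairs, from -66 to 694 bp), and 24 of the 32 covered an annotated start site. Those of the gamma genes were centred a median of 162 bp downstream (38 pairs, from 23 to 398 bp), and all 38 covered a start site. Their median width was 651 bp for alpha and 569 bp for gamma. Start peaks of all coding genes had medians of 931 bp in shGFP and 693, 897 and 872 bp in shLuc.

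**Figure D2:**
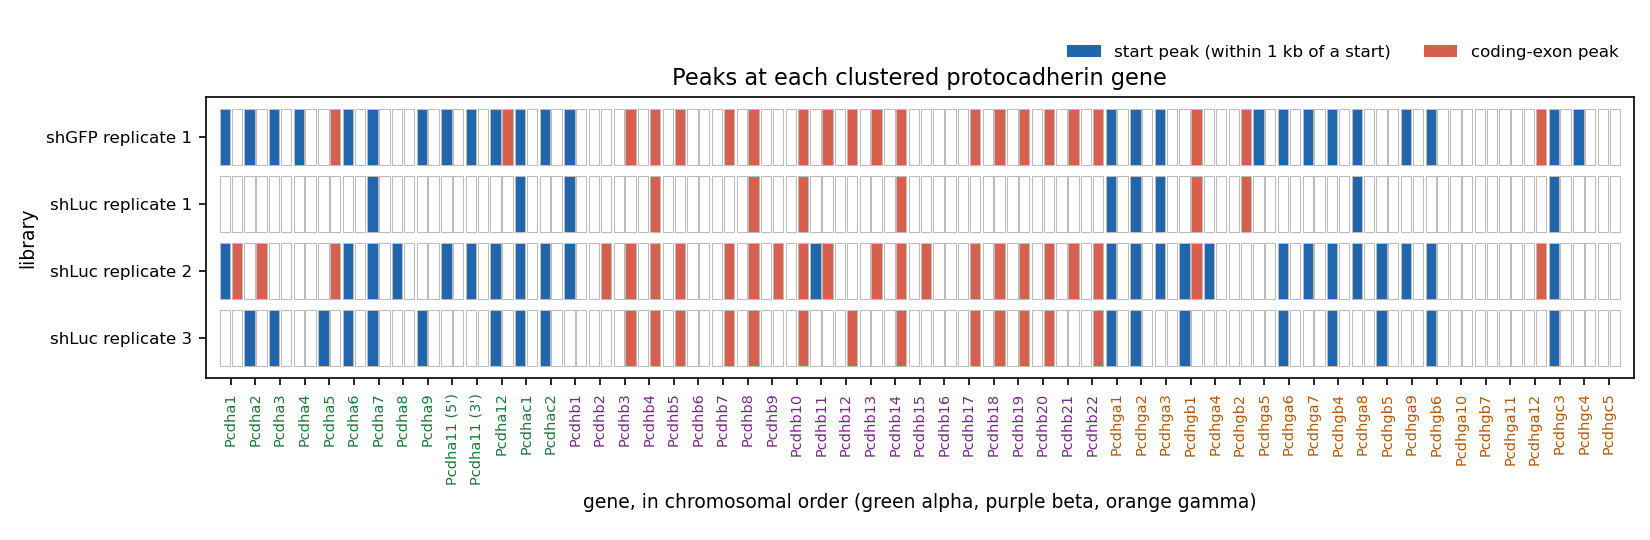
Start peaks (blue, left box of each gene) and coding-exon peaks (red, right box) at the 57 genes in chromosomal order, 1 row for each library; the genes both named Pcdha11 are marked 5' and 3' by their order. Start peaks are marked in 32 alpha, 4 beta and 38 gamma boxes and exon peaks in 5 alpha, 51 beta and 7 gamma boxes, and the row of shLuc replicate 1 is the emptiest, with 8 start peaks.

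The beta genes had few start peaks, yet most of them had a peak elsewhere. Pcdhb1, the first gene of the array, had a start peak of 818, 478 and 806 bp in shGFP and shLuc replicates 1 and 2, centred 62 to 108 bp downstream of the 5′ end. Pcdhb11 had one of 656 bp in shLuc replicate 2. None of the other 20 had a start peak in any library, Pcdhb22, the last gene, among them. A peak over the coding exon, away from the start, was found at 16 of the 22 in shGFP and at 4, 18 and 13 in shLuc replicates 1 to 3, which is 72.7% in shGFP and 53.0% ± 32.2 (SD, n = 3) in shLuc. The shLuc mean without shLuc replicate 1 was 70.5%, and with each list cut to its 17860 widest peaks the shares were 40.9% in shGFP and 30.3% as the shLuc mean. This way of counting was chosen after the positions of the peaks were seen, and so were the names of the beta genes below that had exon peaks in fewer than 4 libraries.

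The 51 exon peaks of the beta genes lay in nearly the same place in each gene. Their centres were between 1885 and 2466 bp downstream of the 5′ end, with a median of 2084 bp. Within the coding part of the exon, which was 2316 to 2487 bp long in the 22 genes, they were centred between 73.0% and 89.0% of its length, with a median of 79.1%. The 3′ end of this exon codes for the membrane-proximal and cytoplasmic parts of the protein. Pairs of gene and library under a peak reached 56.8% of the beta pairs at 2200 bp and were 4.55% at the 5′ end itself. For alpha the maximum was 51.8% at 300 bp, for gamma 45.2% at the 5′ end, and for all coding genes 46.2% at 50 bp.

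An exon peak in every library was found at 4 of the 22. Pcdhb4 had peaks of 743 bp in shGFP and 600, 787 and 815 bp in shLuc replicates 1 to 3, and Pcdhb10 had peaks of 854, 597, 728 and 703 bp. At Pcdhb14 they measured 714, 752, 743 and 889 bp, so that it was not narrower in shLuc replicate 1 than in shGFP. At Pcdhb8 they measured 669, 239, 451 and 387 bp. No other beta gene had an exon peak in shLuc replicate 1.

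In 3 libraries exon peaks were found at 8 beta genes, Pcdhb3, Pcdhb5, Pcdhb7, Pcdhb17, Pcdhb18, Pcdhb19, Pcdhb20 and Pcdhb22, each in shGFP and shLuc replicates 2 and 3. Pcdhb7 had the widest single peak, 975 bp in shGFP, with 797 and 827 bp in shLuc replicates 2 and 3. In 2 libraries they were found at Pcdhb11, Pcdhb12, Pcdhb13 and Pcdhb21, and in 1, shLuc replicate 2, at Pcdhb2, Pcdhb9 and Pcdhb15. Pcdhb1, Pcdhb6 and Pcdhb16 had none, and of these Pcdhb1 was the gene with start peaks. Between libraries, shGFP and shLuc replicate 2 shared 15 beta genes with an exon peak, or 93.8% and 83.3% of each, and all 13 of shLuc replicate 3 were among the 16 of shGFP. The number shared between shLuc replicates 2 and 3 was 12, or 66.7% and 92.3%. Most beta genes had an exon peak in each of these 3 libraries, so many shared genes follow from the counts alone. Sharing of exon peaks was not counted over all coding genes.

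To set these genes beside all coding genes, a different measure was used that needs no exon. It asked for no start peak and a peak centred 1.5 to 2.5 kb downstream of the 5′ end. This measure was not among those planned, and its window spans all the beta exon peak centres, 1885 to 2466 bp. High beta counts thus follow from the choice of window and are a description only. The measure held for 0.606% of coding genes in shGFP and for 0.269%, 0.638% and 0.456% in shLuc replicates 1 to 3. Of the 22 beta genes it held for 16, 4, 17 and 13, so they made up 16 of the 133 such genes in shGFP, 4 of 59, 17 of 140 and 13 of 100 in shLuc. Of the 14 alpha genes 1, 0, 2 and 0 met the measure, and of the 21 gamma genes 2, 2, 0 and 0. These were 7.14% of alpha genes in shGFP and 14.3% in shLuc replicate 2. For gamma the share was 9.52% in both shGFP and shLuc replicate 1. In arrays of 14 and 21 genes a single gene puts the share above that of all coding genes. No excess over all coding genes is therefore read from these alpha and gamma shares. A gene with a start peak cannot meet the measure, which left out 12 of 14 alpha genes in shGFP.

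Exon peaks were few in the other arrays. In alpha they were found at Pcdha1, Pcdha2, Pcdha5 and Pcdha12, in 5 gene and library pairs, centred between 1559 and 1678 bp. In gamma they were found at Pcdhgb1 in 3 libraries, and at Pcdhgb2 and Pcdhga12 in 2 each, centred between 2066 and 2568 bp. Over all 57 genes a peak at the start or in the coding exon was found at 45, 14, 44 and 30 genes, and 6 genes had neither in any library. The same count was not made over all coding genes, so whether these numbers are high or low is not known.

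**Figure D3:**
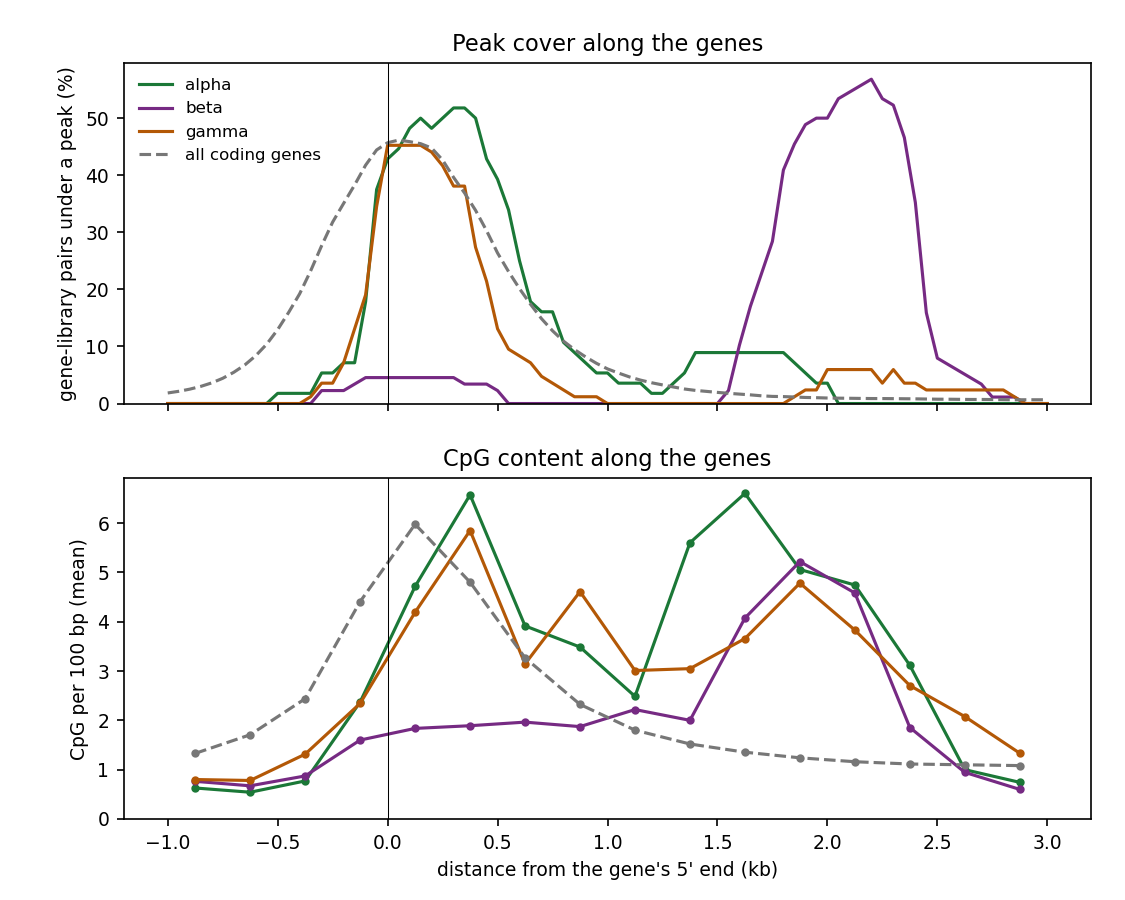
Top, share (%) of gene and library pairs with a peak over each position from 1 kb before to 3 kb after the 5′ end, for the 3 arrays and for all coding genes (dashed); bottom, mean CpG dinucleotides per 100 bp in 250-bp bins. Beta genes are under a peak most often at 2200 bp, alpha and gamma genes within 300 bp of the 5′ end, and the CpG content of beta genes is highest from 1750 to 2000 bp.

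The arrays also differed in the sequence around these places, which the choice of genes had not used. Within 1 kb of the 5′ end the ratio of observed to expected CpG dinucleotides, a measure of how CpG island-like a stretch is, had a median of 0.642 over alpha genes (0.519 to 0.702), 0.330 over beta genes (0.138 to 0.476) and 0.512 over gamma genes (0.252 to 0.821), against 0.475 over all coding genes. Along the genes, beta genes held 1.84 CpG per 100 bp in the first 250 bp and 5.22 between 1750 and 2000 bp. Alpha genes held 6.57 between 250 and 500 bp and 6.60 between 1500 and 1750 bp. Gamma genes held 5.85 between 250 and 500 bp and 4.78 between 1750 and 2000 bp. All coding genes were highest in the first 250 bp, at 5.98, and held 1.24 between 1750 and 2000 bp.

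Across coding genes the share with a start peak rose with this ratio. Below 0.3 it was 17.1% in shGFP and 9.39%, 16.9% and 14.0% in shLuc replicates 1 to 3, over 7733 genes. From 0.3 to 0.5 it was 69.3%, 44.0%, 67.9% and 60.9% over 3867 genes, and from 0.5 to 0.7 it was 89.0%, 72.7%, 88.7% and 82.2% over 6133. At 0.7 or above it was 91.7%, 80.5%, 91.4% and 85.9% over 4205. Of the protocadherin genes 9 lay in the lowest class, where none had a start peak in any library, and 22 in the next, where 6, 3, 9 and 3 had one. Another 22 lay between 0.5 and 0.7, with 18, 4, 13 and 13, and 4 lay at 0.7 or above, with 1, 1, 2 and 1. In each of the 3 classes from 0.3 upward the share of protocadherin genes with a start peak was thus lower than that of all coding genes of the class in all 4 libraries. The part of CpG content in where peaks were called was not tested.

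Array members resemble each other, which bears on how reads were assigned, since a read that fits several places was kept at a place drawn at random among its best alignments. Of the 50-base words in the merged regions at alpha starts, a median of 23.8% occurred more than once in the genome (0 to 41.7% over 14 regions), and in the 250 to 500 bp stretch of the alpha genes the mean was 43.0%. The corresponding median was 0 at gamma starts, with 9 of 15 regions free of such words, and 9.28% (0 to 26.2%) in the 19 exon regions of beta genes. In the exon regions of gamma genes it was 60.7% over 3 regions. A read or read pair longer than 50 bases can hold such a word and still fit a single place. These values are therefore not shares of reads that fit several places. Whether a given alpha gene rather than a near copy gave rise to a peak was not tested.

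The 12-base core of the CTCF motif, searched by exact match to its consensus on both strands, was not found in the 300 bp around the 5′ end (250 before to 50 after) of any of the 57 genes, and 0.556% of all coding genes held it there. Sites that differ from the consensus are missed by such a search, so a missing match does not show that a CTCF site is absent. Between the 5′ end and 1 kb downstream it was found at 6 of 14 alpha genes and at no beta or gamma gene, against 0.597% of coding genes. Those 6, Pcdha1, Pcdha4, Pcdha6, Pcdha7, Pcdha8 and Pcdha12, held it 537 to 581 bp downstream on the sense strand, and 5 of the 6 matches lay inside a region with a peak.

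Between 1.5 and 2.5 kb downstream it was found at 11 of 22 beta genes, against 0.748% of coding genes and none of the alpha and gamma genes. Over the whole coding exon 13 beta genes held a match, each on the antisense strand and each 2271 to 2810 bp downstream of the 5′ end. An exon peak in at least 1 library was found at 12 of these 13 and at 19 of all 22 beta genes. Of these matches 10 lay inside a merged region. In the 12 genes with an exon peak the match was 208 to 446 bp downstream of the centre of the exon region. The central 300 bp held a match in 0 of the 26 exon regions. In the same window 3 of 31 regions at protocadherin starts and 3.92% of 52714 regions over the genome held one. With only 26 exon regions, 0 lies near that share. The 13 beta genes with a match belong to 1 array whose members resemble each other, so the matches are not to be counted as independent. A match to the letters is not evidence of binding. Which of the genes with a match are bound by CTCF was not measured here.

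Peaks were denser over the arrays than over the genome. The span held 57 peaks in shGFP and 19, 56 and 37 in shLuc replicates 1 to 3, or 62.5, 20.8, 61.4 and 40.6 per Mb, against 15.4, 6.55, 15.2 and 11.6 per Mb over the 21 chromosomes. The ratio was 4.06 in shGFP and 3.18, 4.04 and 3.50 in shLuc. The ratio was not set against other gene-rich stretches. Merged over libraries, where peaks that overlap by at least 1 bp count as 1 region, the span held 68 regions, 31 at starts of the protocadherin genes and 26 in their coding exons. In all 4 libraries 13 were found, 19.1% of the 68, against 27.2% of 52714 regions over the genome. Without shLuc replicate 1 the number found in all the remaining libraries was 29.

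The other 11 regions were away from the starts and first exons of the 57 genes. Of these, 4 lay between genes, inside nothing but the read-through models Gm42416, Gm37013 and Gm37388 that run across the arrays. The region at chr18:37217441-37218423 lies in the gap between alpha and beta, 47006 bp from the start of Pcdhb1, the nearest member, and had peaks of 961 bp in shGFP and 973 and 453 bp in shLuc replicates 2 and 3. Beyond Pcdhb22, in the gap between beta and gamma, lay chr18:37543385-37544256, with 629, 569, 600 and 795 bp in shGFP and shLuc replicates 1 to 3, and chr18:37567761-37568873, with 678 bp for shGFP, 843 bp for shLuc replicate 2 and 1113 bp for shLuc replicate 3. At chr18:37630132-37631283, which is 31086 bp before Pcdhga1, the peaks measured 1077, 925, 1085 and 1090 bp and were the widest of the span in shLuc replicate 1.

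Of these 4 regions the first was largely unique sequence, with 4.48% of its bases marked as repeats. The others were marked over 83.1%, 82.3% and 93.0% of their length, and 92.5% of the 50-base words of the last occurred more than once in the genome, and 50.3% of its words occurred more than once within the span and its flanks. No table of enhancers was used, so these regions were not matched to the known hypersensitive sites of the arrays.

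Between beta and gamma, 2 of the 11 were starts of other genes and were found in all 4 libraries. At Taf7, which encodes a subunit of the general transcription factor TFIID, the peaks measured 835, 253, 756 and 636 bp, and at the noncoding gene 3222401L13Rik they measured 677, 460, 684 and 668 bp. The remaining 5 regions were found in 1 to 3 libraries. They lay at the noncoding genes Gm38097 and Gm10544 at the 3′ end of the alpha array, at the start of Pcdhgb8, which the annotation lists as a polymorphic pseudogene, in an intron shared by the alpha genes, and in the last constant exon of the gamma array. These 5 were named after their values were seen. The 50 kb before the arrays held no region in any library and the 50 kb after them held 4, all within Diaph1.

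**Figure D4:**
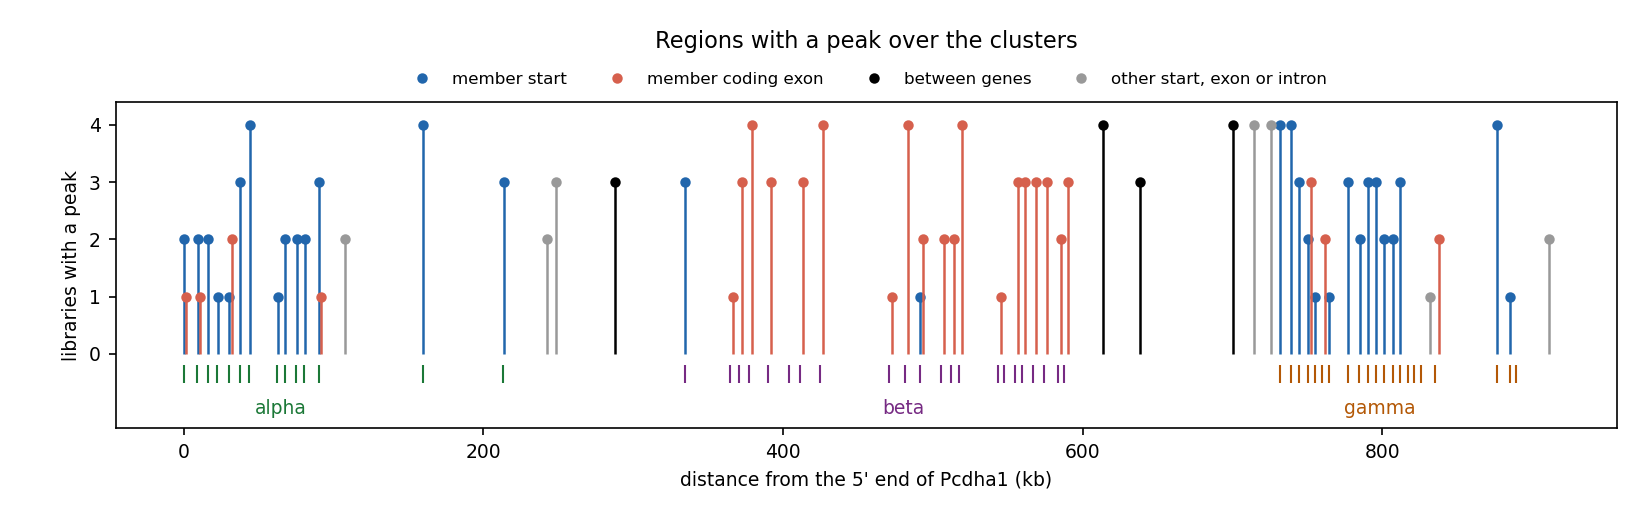
Merged regions with a peak over the arrays, by distance from the 5′ end of Pcdha1 (kb) and by the number of libraries with a peak there; ticks below mark the gene starts of each array. Of the 68 regions 13 reach 4 libraries, among them 5 at protocadherin starts, 4 in beta coding exons and 2 between genes.

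Other cadherin genes were read in the same way. Of 12 protocadherin genes outside the arrays, 5 had a start peak in shGFP and 1, 6 and 4 in shLuc replicates 1 to 3. Pcdh9 had one in all 4 libraries, and Pcdh1, Pcdh7, Pcdh10 and Pcdh12 had none in any. Of 10 classical and large cadherins, 6 had a start peak in shGFP and 2, 6 and 6 in shLuc. Cdh1, the epithelial cadherin of ESCs, and Celsr3 had one in all 4, and Fat1 and Fat2 had none. Of 14 genes known to act on the arrays, 13 had a start peak in shGFP and 10, 13 and 11 in shLuc. Found in all 4 libraries were Ctcf, the cohesin genes Rad21, Smc1a, Smc3 and Stag1, the cohesin release factor Wapl, the maintenance DNA methyltransferase Dnmt1, and Smchd1, which acts in silencing of the arrays.

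Among other tandem families, olfactory receptors had a start peak at 17 of 1135 genes in shGFP and at 5, 18 and 9 in shLuc replicates 1 to 3, which is at most 1.59%. The vomeronasal receptor families had them at 1, 1, 2 and 1 of 209 Vmn1r genes and at 1, 0, 1 and 0 of 120 Vmn2r genes. Hox genes had them at 10, 2, 15 and 12 of 39. In each of the 4 libraries the alpha and gamma arrays lay above these families in share. The beta genes, counted by their starts, lay between the receptor families and Hox in shGFP and shLuc replicates 1 and 2, and at 0 in shLuc replicate 3. None of these differences between families was tested.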

How the data were processed

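The 4 ATAC-seq libraries were 1 shGFP and 3 shLuc. The authors aligned reads to mm10 with Bowtie2, kept multimapped reads at a randomly drawn best alignment and called peaks with MACS2 for each library (their processing notes also name bcl2fastq). The deposited lists hold positions only, that is chromosome, start and end of each peak, with no other score, so depth and peak height are unknown. Starts were read as 0-based and are given as 1-based.

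Genes were taken from GENCODE vM21 (21938 coding genes on 21 chromosomes). A start peak has a base within 1 kb of any transcript start, an exon peak overlaps the coding part of the first coding exon and is no start peak. Peaks of the 4 libraries were merged where they overlapped by at least 1 bp. Repeated words were counted over 50 bases on both strands of the RefSeq copy of GRCm38. Shares carry 95% Wilson intervals, which cover counting error only, or the mean ± SD of shLuc. The labels do not say whether shLuc replicates were separate cultures, so their spread may be technical. No test between groups was made. The members and gene lists were chosen with earlier results of these data known. Named were the 30 members with a start peak in most libraries (ties by width), of members without one the C-type, first and last genes, up to 10 regions away from starts by libraries then width, and list genes with a start peak in all 4 libraries or none; others are said to be named after their values were seen. The counting code was checked on 20 simulated cases with 0 wrong answers. Alternatives were other start windows, start definitions, the midpoint of a peak, the widest peaks and leaving out each shLuc library. Python 3.11.15, NumPy 2.4.6, SciPy 1.17.1, Numba 0.67.0 and Matplotlib 3.10.9 were used. No sequence is shown.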

Additional observations from a re-analysis of the deposited data

How the results depend on the processing

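Within 5 kb the share of all 57 genes was 86.0% in shGFP and 58.5% as the shLuc mean, that of beta genes 77.3% and 59.1%, and that of gamma genes 90.5% in shGFP. Of all coding genes 67.9% had a peak within 5 kb in shGFP and 59.9% as the shLuc mean, close to the shLuc means of all 57 and of beta. This distance takes in the exon peaks and, where genes lie close together, also peaks of neighbouring genes. Counting start and exon peaks directly, a choice made after seeing the data, gave 78.9% and 51.5% for all 57. It gave 77.3% and 56.1% for beta, and 71.4% for gamma in shGFP. This direct count was not made over all coding genes. With the widest 50% of each list the shares were 24.6% and 9.36% for all 57, 57.1% and 16.7% for alpha and 23.8% and 11.1% for gamma, and for beta exon peaks 54.5% and 28.8%. With lists cut to equal length, the widest 17860 peaks of each, they were 19.3% and 12.9% for all 57, 42.9% and 23.8% for alpha, 19.0% and 15.9% for gamma, and 40.9% and 30.3% for beta exon peaks. The share of all coding genes, whose interval is narrow, was 59.6% in shGFP within 500 bp, 67.9% within 5 kb, 59.2% with coding transcripts, 56.0% with gene 5′ ends, 59.8% by midpoint, 51.2% and 41.0% (shLuc mean) with the widest 50%, and 47.3% and 46.4% at equal length.

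Peaks over the span numbered 33 in shGFP and 16 as the shLuc mean with the widest 50%, and 25 and 20 at equal length. The 13 regions found in all 4 libraries became 8 when peaks had to cover 50% of a region, 2 with the widest 50%, 6 at equal length, and 13 to 29 when 1 shLuc library was left out. Leaving out 1 shLuc library gave shLuc means of 21.9% to 36.0% for all 57, 39.3% to 64.3% for alpha, 2.27% to 6.82% for beta, 31.0% to 50.0% for gamma, 51.0% to 57.7% for all coding genes, 38.6% to 70.5% for beta exon peaks and 28.0 to 46.5 peaks. Of 120 alternative values, 82 stayed within the SD of the shLuc libraries, the interval of the share or 1.5 times. Leaving out 1 shLuc library cannot move a mean share by more than that SD. Those mean shares are therefore among the 82 by construction and say nothing about stability. No paired analysis was possible because shGFP has 1 library and its label gives no replicate number. Depth, peak scores and reads placed at random among near copies could not be varied with lists of positions.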
